A study of Mus musculus with 12 samples.

Results

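The receptors through which haematopoietic cells read stem cell factor (SCF), interleukin 3 (IL-3), interleukin 6 (IL-6) and related cytokines were followed here as a set of 8 genes: Kit, Il3ra, Csf2ra, Csf2rb, Csf2rb2, Il6ra, Il6st and Flt3. Membership was fixed by gene symbol alone. Every probe that the platform annotation gives to these symbols was taken, which made 16 probes of 45281 on the array. Of these, 11 probes of 7 genes passed the filter on low signal (a detection p under 0.05 on at least 3 of 12 arrays), beside 19274 probes of 10315 genes in all. The 5 probes that did not pass were 2 of Flt3, 2 of Il6ra and 1 of Il6st, and Flt3 had no other.

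The arrays were Illumina mouse BeadChips carrying RNA of bone marrow (BM) cells from BcorFl/Y mice aged 3 months, in which loxP sites flank exons 9 and 10 of the X-linked corepressor gene Bcor. All cells, those of the controls included, carried the floxed allele, were kept as mononuclear cells after a Ficoll gradient, and grew in medium with 20% fetal bovine serum, 50 ng/ml SCF, 25 ng/ml IL-6 and 10 ng/ml IL-3. They received an empty retrovirus (control) or a retrovirus for Cre recombinase (Cre), followed by puromycin selection, so Cre acted only in culture and in whichever cells took up virus. There were 4 groups of 3 arrays. For the CD34+ groups, CD34+ cells were sorted from the cultures of 2 numbered marrows, number 2 (2 repeats for each virus) and number 4 (1 array for each virus). The BM control and BM Cre groups were unsorted cells, repeats 1 to 3. Nothing in the labels says whether the BM repeats were separate animals or cultures, and the number 2 repeats share a marrow, so p-values measure the spread between these arrays, which may be partly technical.

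Detected probes numbered 15571 to 16372 on the CD34+ arrays and 16985 to 17742 on the BM arrays. Their median signals before normalisation were 232.2 to 289.7 on the CD34+ arrays and 302 to 368.4 on the BM arrays. The populations thus did not overlap in either measure, and how far this bears on contrasts between them near background was not tested. Precision here is set by having 3 arrays in a group. Bcor itself, on its brighter probe (ILMN_1228091, log2 normalised intensity), stood at 9.69 to 9.91 on the CD34+ control arrays, at 8.93 and 9.08 on the number 2 Cre arrays and at 9.95 on the array labelled number 4 Cre, which therefore did not show the lower level. In BM cells it was 9.52 to 9.87 under the control virus and 8.42 to 8.83 under Cre (log2 difference -1.15 ± 0.24 SE, adjusted p = 0.00643 by limma). Where the Bcor probes lie relative to the deleted exons was not analysed here. Values for Cre in CD34+ cells are therefore also given for the member probes, and as counts for the gene lists, with that array left out. The CD34+ Cre arrays that then remain are the 2 repeats of marrow number 2. Differences and calls without that array are thus not replicated across Cre marrows. Cd34, the sorted marker, read 10.04 to 10.41 in sorted control cells and 10.00 to 10.29 in unsorted control cells, a difference of 0.09 (adjusted p = 0.819), so its RNA did not separate the control populations. All 15 tested genes of a list of mast cell and basophil markers were detected on every BM array and 13 on every CD34+ array. Of 9 stem and progenitor markers, 2 were detected on every BM array and 3 on every CD34+ array. On the CD34+ control arrays, 4 of the 9 were detected on all 3 arrays and 4 on none.

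As background, Kit is the receptor tyrosine kinase for SCF, and Flt3 is a related kinase that binds Flt3 ligand. Kit is kept through life by mast cells and lost by most other maturing blood cells, whereas Flt3 marks early multipotent and lymphoid-primed progenitors. The receptors for IL-3, granulocyte-macrophage colony-stimulating factor (GM-CSF) and IL-5 each join a ligand-specific alpha chain (Il3ra, Csf2ra and Il5ra) to the common beta chain encoded by Csf2rb. Mice have an additional beta chain, encoded by Csf2rb2, which serves IL-3 only. Both beta chains signal through Jak2 and Stat5. IL-6 binds Il6ra, and the pair engages Il6st (gp130), the shared signal chain of the IL-6 family, which signals through Jak1 and Stat3.

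The promoters of 4 genes are printed. Kit and Csf2rb2 were lower together in BM cells under Cre, and Il3ra was higher in sorted CD34+ cells than in BM cells. Il6ra is printed for 1 probe that was detected, near background, on the CD34+ arrays alone and passed the filter only through them. The other Il6ra probes did not share its direction, so it is no support for a difference between populations. Windows of 250 bases before to 50 after the gene start came from RefSeq on GRCm38.p6 and were matched for 7 of the 8 genes (not Csf2rb). Capitals mark matches to AGATAA (the GATA factor motif) and GAGGAA (an Ets factor motif) on either strand, and sequences run 5′ to 3′ on the gene's strand. Kit lies at chr5:75574737-75575036 (plus strand, the first of 2 windows listed), Csf2rb2 at chr15:78305672-78305971 (minus strand), Il3ra at chr14:14346245-14346544 (plus strand) and Il6ra at chr3:89913147-89913446 (minus strand).
Kit: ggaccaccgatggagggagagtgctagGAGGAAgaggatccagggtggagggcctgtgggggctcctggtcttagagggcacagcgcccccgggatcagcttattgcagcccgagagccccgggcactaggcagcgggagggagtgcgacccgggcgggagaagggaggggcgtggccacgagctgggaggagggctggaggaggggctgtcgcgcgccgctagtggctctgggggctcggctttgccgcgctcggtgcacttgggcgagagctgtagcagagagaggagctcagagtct
Csf2rb2: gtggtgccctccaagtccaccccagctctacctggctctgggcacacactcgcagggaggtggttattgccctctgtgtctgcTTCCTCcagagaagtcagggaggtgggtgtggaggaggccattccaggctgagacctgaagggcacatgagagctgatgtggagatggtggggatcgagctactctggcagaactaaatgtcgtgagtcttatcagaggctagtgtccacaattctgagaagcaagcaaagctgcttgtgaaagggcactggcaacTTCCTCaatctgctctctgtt
Il3ra: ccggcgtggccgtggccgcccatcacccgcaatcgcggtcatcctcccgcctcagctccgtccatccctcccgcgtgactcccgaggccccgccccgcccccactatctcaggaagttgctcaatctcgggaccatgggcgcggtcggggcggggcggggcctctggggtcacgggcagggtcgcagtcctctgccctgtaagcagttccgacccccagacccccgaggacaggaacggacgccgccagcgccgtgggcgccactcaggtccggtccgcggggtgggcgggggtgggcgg
Il6ra: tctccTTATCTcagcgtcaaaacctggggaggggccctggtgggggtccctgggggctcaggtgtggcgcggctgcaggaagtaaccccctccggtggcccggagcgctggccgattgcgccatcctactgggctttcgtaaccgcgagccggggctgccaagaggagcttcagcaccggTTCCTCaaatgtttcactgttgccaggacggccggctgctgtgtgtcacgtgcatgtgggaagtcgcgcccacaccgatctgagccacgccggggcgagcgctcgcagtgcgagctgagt

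The Ets letters were in the windows of 4 of the 7 genes (Kit, Csf2ra, Csf2rb2 and Il6ra) and in 28.3% of all 32851 promoter windows, and the GATA letters in that of 1 gene (Il6ra) and in 11.2% of all windows. The same search on both strands gave TTCNNNGAA (STAT factors) in 1 gene, Csf2rb2, against 8.3% of windows, TTNCNNAA (C/EBP factors) in 4 genes against 40.7%, CANNTG (E-box) in 6 genes against 72.3% and TGTGGT (Runx factors) in 0 genes against 16.8%. A C/EBP match and an Ets match share their first base in Csf2rb2 (29 bases after the start) and in Il6ra (base -70). These matches are letters in a window and were not set against binding data.

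Kit, the SCF receptor, had 3 probes, of which ILMN_1246876 targets the reference transcript and the others target separate cDNA clones. On the log2 scale of normalised intensity, ILMN_1246876 read 14.83, 14.87 and 15.29 on the CD34+ control arrays (number 2 repeats 1 and 2, then number 4), and 14.61, 14.61 and 15.17 on the CD34+ Cre arrays in the same order. In BM cells it read 15.04, 15.40 and 15.48 under the control virus and 14.47, 14.02 and 14.77 under Cre. All BM Cre arrays lay below all BM control arrays, while in CD34+ cells the virus groups overlapped and both number 4 arrays were the brightest of their group. The BM difference was -0.89 ± 0.21 (SE, 3 against 3 arrays, 1.85-fold lower, adjusted p = 0.0144 in the limma fit over all kept probes). In CD34+ cells it was -0.20 ± 0.21 (adjusted p = 0.759), and -0.39 (adjusted p = 0.252) when the array labelled number 4 Cre was left out.

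The clone probe ILMN_1216898 gave the same order of groups. Its levels were 10.67, 10.61 and 10.93 in CD34+ control cells, 9.99, 9.96 and 11.28 in CD34+ Cre cells, 11.04, 11.45 and 11.47 in BM control cells and 10.11, 9.42 and 10.57 in BM Cre cells. The array labelled number 4 Cre was above every CD34+ control array on this probe, and the number 2 Cre arrays were below every one. In BM cells the level was 2.44-fold lower under Cre (log2 -1.29 ± 0.35, adjusted p = 0.0264, limma). In CD34+ cells the difference was -0.33 ± 0.35 (adjusted p = 0.762) over all arrays, -0.66 within marrow number 2 and 0.35 within marrow number 4, and -0.76 (adjusted p = 0.10) without the array labelled number 4 Cre.

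ILMN_1250169, the dimmest Kit probe, was not detected on any of the 6 CD34+ arrays (4.59 to 5.28) and was detected on all BM control arrays (6.39, 7.13 and 7.08) and on 2 of 3 BM Cre arrays (5.83, 4.98 and 5.99, the middle value undetected). It was lower under Cre in BM cells (log2 -1.27 ± 0.29, 2.41-fold, adjusted p = 0.0116, limma), without overlap of the arrays. The probe passed the filter only with the BM control arrays, where it was high. In a limma fit of all 45281 probes with no filter the adjusted p of this difference was 0.0151. Because it passed the filter through BM arrays alone, its contrast between populations is taken from a fit of all 45281 probes with no filter. Against CD34+ control cells, where it was not above background, the BM control level was at least 2.57-fold higher (adjusted p = 0.000171 in that fit, limma). The unfiltered difference under Cre was -0.84 (CD34+ minus BM, adjusted p = 0.0498). For Cre in CD34+ cells this probe gave -0.12 (adjusted p = 0.917), and -0.24 (adjusted p = 0.685) without the array labelled number 4 Cre. The other Kit probes did not separate the control populations: ILMN_1246876 differed by -0.31 (CD34+ minus BM, adjusted p = 0.27) and ILMN_1216898 by -0.58 (adjusted p = 0.204).

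Flt3, the Flt3 ligand receptor, was not above background on any of the 12 arrays with either of its probes. Group means of ILMN_2576268 were 4.68 to 5.02 and those of ILMN_2761370 were 4.65 to 4.88. No fold is given for it.

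Il3ra, the IL-3 receptor alpha chain, was measured by 1 probe (ILMN_2916571). The CD34+ control arrays read 10.51, 10.41 and 10.47 and the CD34+ Cre arrays 10.20, 10.19 and 10.63, whereas BM control arrays read 9.18, 9.43 and 9.98 and BM Cre arrays 8.80, 8.66 and 9.53. Each sorted array was thus brighter than each unsorted array. CD34+ control cells were 1.91-fold above BM control cells (log2 0.93 ± 0.25, adjusted p = 0.0102, limma), and under Cre the populations differed 2.54-fold (1.34 ± 0.25, adjusted p = 0.000822). Under median scaling in place of quantile normalisation the control difference was 0.47 (adjusted p = 0.178); that scaling moved the median difference of all probes from 0.05 to -0.26, and relative to that median Il3ra was 0.88 higher under the first scaling and 0.72 under the second. The virus groups overlapped in both populations. In BM cells Cre gave -0.53 ± 0.25 (adjusted p = 0.192), and the pairs of equal repeat number differed by -0.38, -0.77 and -0.45, so that the fit with the repeat number as a block gave adjusted p = 0.0122. In CD34+ cells the difference was -0.13 ± 0.25 (adjusted p = 0.892), and -0.27 (adjusted p = 0.561) with the number 4 Cre array left out.

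Csf2ra, the GM-CSF receptor alpha chain, had virus differences that pointed in opposite directions in the populations. Its probe ILMN_2866276 read 8.74, 8.57 and 8.79 in CD34+ control cells and 8.04, 8.26 and 8.44 in CD34+ Cre cells. In BM cells the levels were 8.28, 8.52 and 8.15 under the control virus and 8.92, 8.57 and 8.70 under Cre. All CD34+ Cre arrays lay below all CD34+ control arrays, in marrow number 2 (-0.51) and number 4 (-0.35), and all BM Cre arrays lay above all BM control arrays. Neither difference passed the threshold on its own: -0.46 ± 0.18 in CD34+ cells (adjusted p = 0.334, limma; -0.55 and 0.0828 with the number 4 Cre array left out) and 0.41 ± 0.18 in BM cells (adjusted p = 0.152). The difference between the effects was -0.87 ± 0.25 (adjusted p = 0.0775). It passed with the marrow and repeat number as a block (adjusted p = 0.0329) and, at -0.97, when the array labelled number 4 Cre was left out (adjusted p = 0.0364). It did not pass when the number 2 repeats were also paired in that block (adjusted p = 0.0653). Under Cre, CD34+ cells were 1.40-fold below BM cells (log2 -0.48 ± 0.18, adjusted p = 0.0385), a call kept in 12 of 22 alternative settings. Under the control virus they differed by 0.39 ± 0.18 (adjusted p = 0.103).

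The alpha chain of the IL-5 receptor, Il5ra, which pairs with the same beta chain, is not a member of the set. Its mean log2 level was 5.87 ± 0.39 (SD, n = 3) in CD34+ control, 5.35 ± 0.54 in CD34+ Cre, 6.49 ± 0.56 in BM control and 7.47 ± 0.32 in BM Cre cells, and the virus differences of -0.52 and 0.98 did not pass the threshold (adjusted p = 0.58 and 0.0799, limma).

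Csf2rb, the common beta chain of the IL-3, GM-CSF and IL-5 receptors, was lower under Cre in BM cells on all 3 of its probes, of which 2 passed the threshold. ILMN_2688262 read 11.25, 11.19 and 10.69 in CD34+ control, 10.84, 10.82 and 11.24 in CD34+ Cre, 10.74, 10.67 and 10.37 in BM control and 10.03, 9.15 and 9.87 in BM Cre cells. The BM Cre arrays lay below every other array, and the BM difference was -0.91 ± 0.24 (1.88-fold lower, adjusted p = 0.0226, limma). ILMN_1236070 read 8.82, 8.99 and 9.01 in CD34+ control, 8.52, 8.79 and 9.42 in CD34+ Cre, 10.07, 9.65 and 9.65 in BM control and 9.11, 8.49 and 9.26 in BM Cre cells. It was highest on the BM control arrays, with no overlap with any other group, and the BM difference was -0.83 ± 0.25 (1.78-fold lower, adjusted p = 0.0468). That call was kept in 9 of 23 alternative settings.

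The dimmest Csf2rb probe, ILMN_1253312, read 6.07, 6.60 and 6.37 in CD34+ control, 6.76, 6.79 and 6.83 in CD34+ Cre, 7.76, 7.55 and 7.94 in BM control and 7.07, 6.55 and 7.47 in BM Cre cells. Here the Cre arrays were above the control arrays in CD34+ cells and below them in BM cells, without overlap in either population. The BM difference was -0.72 ± 0.24 (adjusted p = 0.0661, limma; 0.0167 with the repeat number as a block) and the CD34+ difference 0.45 ± 0.24 (adjusted p = 0.489; 0.43 and 0.327 with the number 4 Cre array left out). The difference between the effects was 1.18 ± 0.34 (adjusted p = 0.0784, and 0.0186 with the block). For Cre in CD34+ cells ILMN_2688262 gave -0.08 and ILMN_1236070 gave -0.03, whose sign turned under some settings. With the number 4 Cre array left out they gave -0.22 and -0.29 (adjusted p = 0.632 and 0.464).

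Csf2rb probes disagreed on the contrast between populations. Under the control virus, CD34+ cells were below BM cells by 1.80-fold on ILMN_1236070 (log2 -0.85 ± 0.25, adjusted p = 0.0184, limma) and by 2.65-fold on ILMN_1253312 (-1.41 ± 0.24, adjusted p = 0.000631), whereas ILMN_2688262 gave 0.45 ± 0.24 (adjusted p = 0.154). Under Cre, ILMN_2688262 was 2.43-fold higher in CD34+ cells (1.28 ± 0.24, adjusted p = 0.000802), while the other probes differed by -0.05 and -0.23 (adjusted p = 0.893 and 0.452). All 3 are annotated to the same transcript. Csf2rb and Csf2rb2 are neighbours on 1 chromosome, with 0 protein-coding genes between them in the annotation, and are close copies of each other, and how far a probe of either binds RNA of the other was not tested.

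Csf2rb2, the beta chain that serves IL-3 alone, had 1 bright probe (ILMN_2750047). It read 13.47, 13.54 and 13.69 in CD34+ control, 13.29, 13.20 and 13.48 in CD34+ Cre, 14.25, 14.31 and 14.38 in BM control and 13.87, 13.14 and 13.54 in BM Cre cells. The BM control arrays lay close together and above all 9 other arrays. Under Cre the BM level was 1.74-fold lower (log2 -0.80 ± 0.16, adjusted p = 0.00432, limma), a call kept in all 24 alternative settings. BM control cells were also 1.68-fold above CD34+ control cells (CD34+ minus BM -0.75 ± 0.16, adjusted p = 0.00246). Under Cre the populations differed by -0.19 ± 0.16 (adjusted p = 0.336). In CD34+ cells the virus groups overlapped (-0.24 ± 0.16, adjusted p = 0.57; -0.32 and 0.245 with the number 4 Cre array left out).

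Il6ra, the IL-6 binding chain, was detected on all 6 CD34+ arrays and on none of the 6 BM arrays by ILMN_1216057. The levels were 5.81, 5.80 and 5.55 in CD34+ control and 5.53, 5.65 and 6.00 in CD34+ Cre cells, against 4.75 to 4.89 in BM control and 4.66 to 4.83 in BM Cre cells. This probe passed the filter through CD34+ arrays alone, so the contrast between populations is taken from the unfiltered fit of 45281 probes. By this probe sorted cells were at least 1.31-fold higher under the control virus (adjusted p = 0.00206, limma) and at least 1.39-fold higher under Cre (adjusted p = 0.000815). Cre made a difference of 0.01 ± 0.16 in CD34+ cells (95% interval -0.33 to 0.35, adjusted p = 0.991), and -0.13 (adjusted p = 0.652) with the number 4 Cre array left out. The other Il6ra probes did not pass the filter: ILMN_1255743 was detected on 1 of 12 arrays, BM Cre repeat 1 (5.30), and ILMN_2706430 on 1 of 12, BM Cre repeat 2 (5.44). Both read higher on every BM Cre array than on every BM control array. In a fit of all 45281 probes these differences were 0.63 ± 0.10 (adjusted p = 0.000643) and 0.46 ± 0.12 (adjusted p = 0.0401), at levels that were mostly not above background. These probes did not share the direction of ILMN_1216057 between populations. In the same fit CD34+ minus BM was 0.07 and 0.09 under the control virus (adjusted p = 0.728 and 0.715), and -0.56 and -0.44 under Cre (adjusted p = 0.000523 and 0.0152).

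Il6st, the signal chain gp130, was near background throughout. ILMN_2608184 was detected on no CD34+ array (4.79 to 5.46), on 1 of 3 BM control arrays (5.23, 5.36 and 5.27, the middle value detected) and on all 3 BM Cre arrays (5.59, 5.81 and 5.62). The BM Cre arrays were above all the others. The Cre difference in BM cells was 0.39 ± 0.19 (adjusted p = 0.203, limma), and in CD34+ cells it was 0.07 (adjusted p = 0.925; 0.12 and 0.772 with the number 4 Cre array left out). The probe passed the filter through BM arrays alone, and under Cre BM cells were at least 1.12-fold above CD34+ cells (adjusted p = 0.0409 in the unfiltered fit). With the authors' deposited table that difference had the opposite sign. There the probe stood at the floor of 24 on every array but CD34+ Cre number 2 repeat 2 (27.15), where it was not detected. The deposited table therefore cannot show the direction. The other Il6st probe, ILMN_2452075, was detected on no array.

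**Figure D1:**
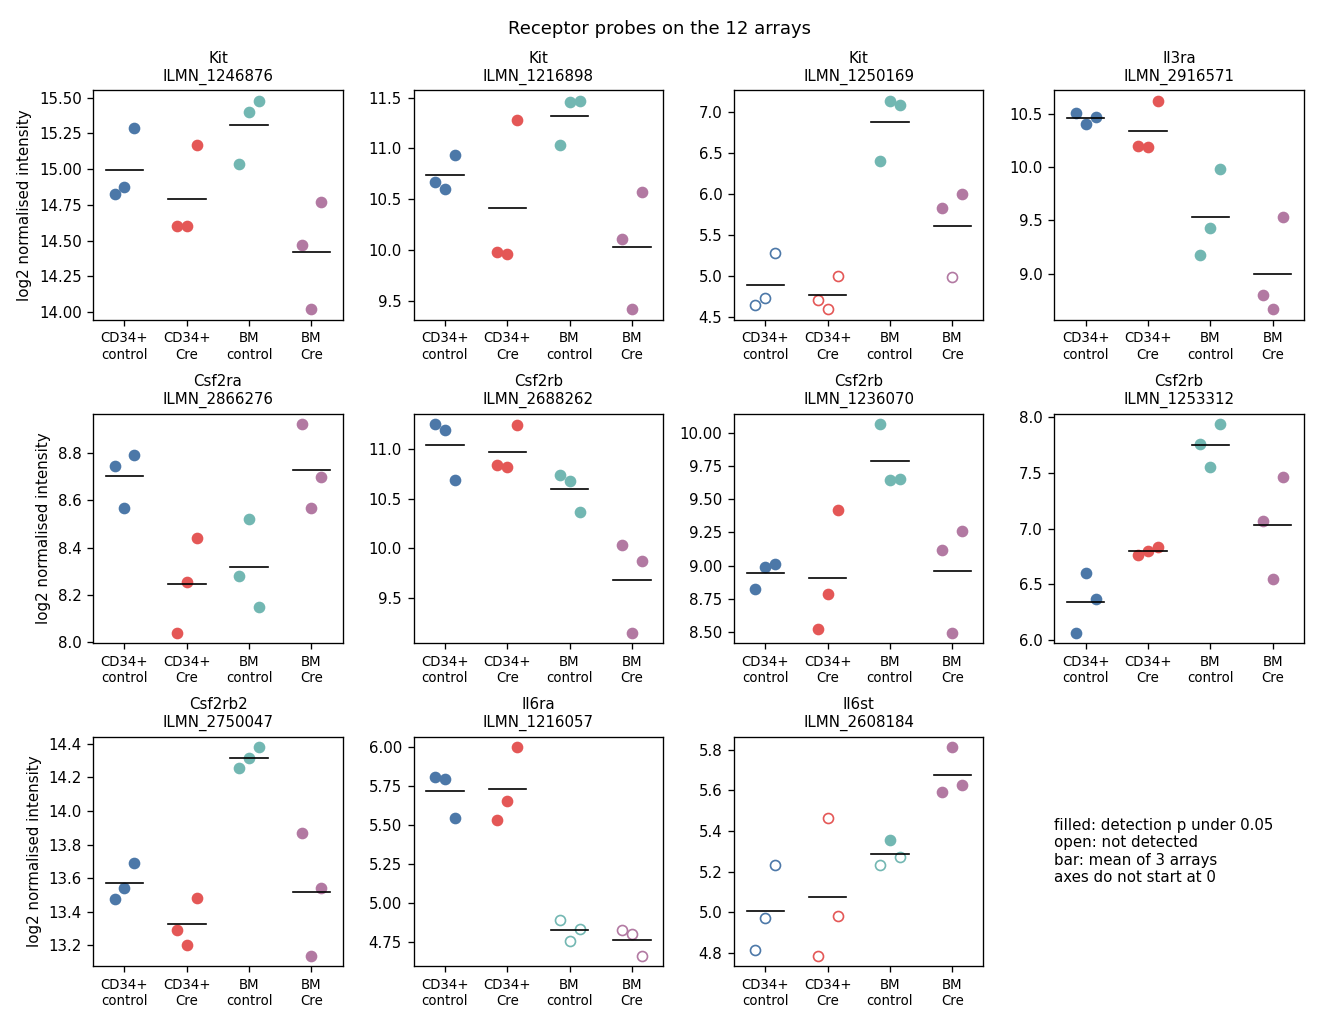
Log2 normalised intensity of the 11 receptor probes above the filter on each of the 12 arrays, with a panel for each probe; filled points are detected (detection p under 0.05), open points are not, and bars are means of 3 arrays. BM Cre arrays sit below BM control arrays for the Kit, Csf2rb and Csf2rb2 probes, while ILMN_1216057 of Il6ra is detected on the CD34+ arrays and on no BM array.

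Kit, Csf2rb and Csf2rb2 probes fell with Cre in BM cells. There 6 of 11 member probes were called, all lower (3 of Kit, 2 of Csf2rb and 1 of Csf2rb2), where 14.0% of all tested probes were called and 6.95% were called lower. The count includes Kit ILMN_1250169, which passed the filter only with the BM control arrays, where it was high. The median difference of the member probes was -0.80, beside -0.07 over all tested probes. By the brightest probe of each gene, 3 of 7 genes were called. In CD34+ cells 0 of 11 were called by limma (1 with an unadjusted p under 0.05, Csf2ra), where 0.617% of all probes were called, with a median of -0.12 beside 0.01. Without the array labelled number 4 Cre the count of all probes called in CD34+ cells rose from 119 to 1816, and that of member probes stayed at 0.

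The count in BM cells leaned on single arrays. It was 1 of 11 without BM control repeat 2 or without BM Cre repeat 2, 2 of 11 without BM control repeat 3, and 8 of 11 without BM Cre repeat 3. The count over all 19274 probes, 2706, moved in the same directions. It became 1889 without BM control repeat 2, 1797 without BM Cre repeat 2, 1792 without BM control repeat 3 and 3392 without BM Cre repeat 3. Of the called probes, that of Csf2rb2 was called without each of these arrays in turn. The 3 Kit probes had adjusted p of 0.0506 to 0.116 without BM Cre repeat 2 and kept their direction, with differences of -0.69, -0.98 and -0.96. Deviations from the group mean correlated at 0.12, 0.40 and 0.35 between BM arrays of equal repeat number, and at -0.36 to 0.04 between the others. The pairing was taken from these same data, as the labels do not state it. With the repeat number as a block 8 of 11 were called, the added probes being that of Il3ra and the dimmest of Csf2rb. The block also raised the count over all 19274 probes, from 2706 to 5078. In the pairs, 8 of 11 probes were lower in all 3 and most so in pair 2, where ILMN_1246876 of Kit differed by -1.38 against -0.57 and -0.71 in the others. The probes of Csf2ra and Il6st were higher in all 3 pairs.

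**Figure D2:**
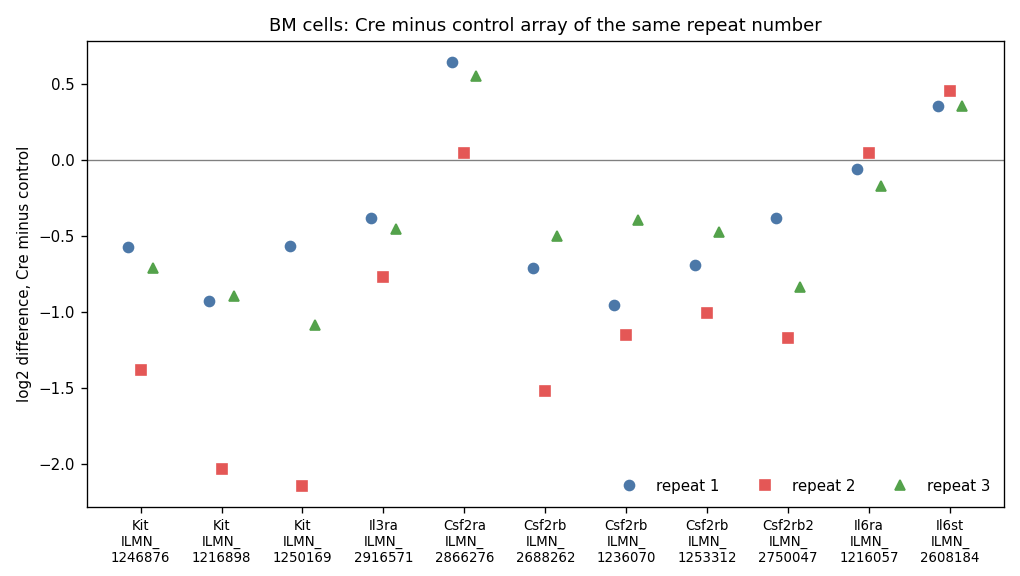
Log2 difference between the BM Cre and BM control arrays of the same repeat number for each of the 11 probes, with a symbol for each pair. For 8 probes all 3 pairs are below 0 and pair 2 is the lowest, and Csf2ra and Il6st are above 0 in all pairs.

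**Figure D3:**
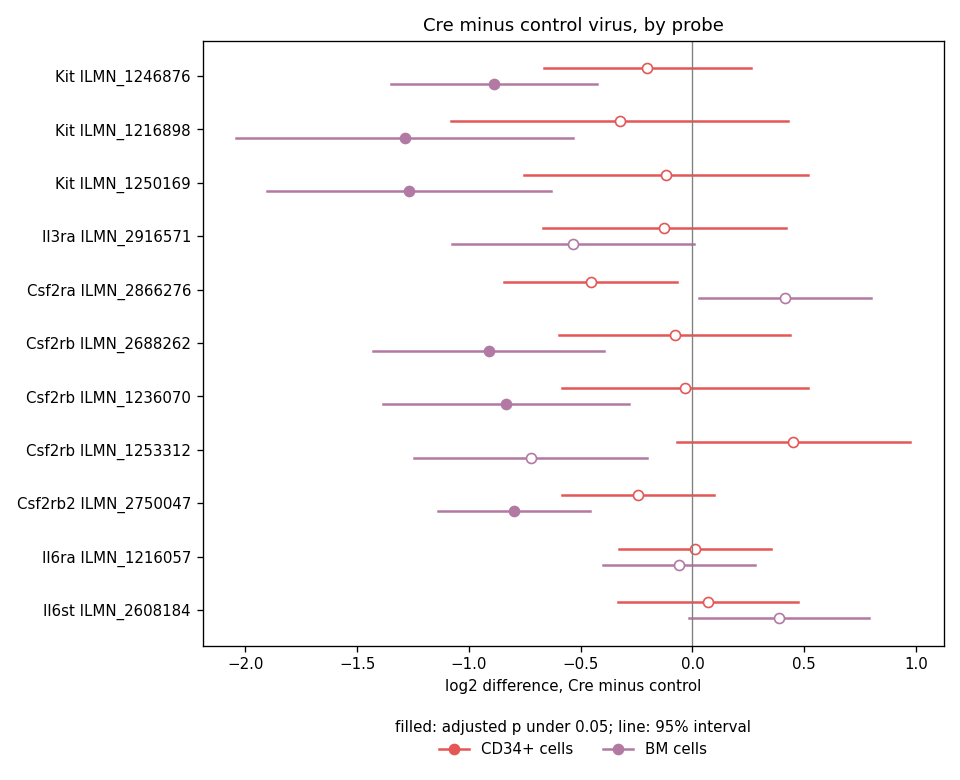
Log2 difference between Cre and control virus for each probe in CD34+ and BM cells, with 95% intervals from the limma fit; filled points have an adjusted p under 0.05. The 6 filled points are all BM differences below 0, and the CD34+ intervals include 0 except that of Csf2ra.

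Whether the virus difference itself depended on the population was tested for each probe. Of 11 probes, 0 were called by limma (7 with an unadjusted p under 0.05), where 4.75% of all probes were called. With the marrow and repeat number as a block 3 were called: Kit ILMN_1246876 (0.69, adjusted p = 0.0398), Csf2ra (adjusted p = 0.0329) and Csf2rb ILMN_1253312 (adjusted p = 0.0186). That block raised the count over all 19274 probes from 916 to 1949. Leaving out the array labelled number 4 Cre, or BM Cre repeat 3, gave 1 call each, that of Csf2ra and that of Csf2rb ILMN_1253312. Over all probes these settings gave 1369 and 1024 calls. With the number 2 repeats also paired in the block, Csf2rb ILMN_1253312 was called (adjusted p = 0.028), and Kit ILMN_1246876 and Csf2ra were not (adjusted p = 0.0731 and 0.0653).

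Between populations, 6 of 11 member probes were called under the control virus (2 higher and 4 lower in CD34+ cells), where 39.9% of all probes were called, and 6 of 11 under Cre (3 higher and 3 lower), where 49.1% were. Both shares, 54.5%, were close to the background. These counts include probes that passed the filter through 1 population alone (Kit ILMN_1250169, Il6ra ILMN_1216057 and Il6st ILMN_2608184) and so are no support for a difference. Of the 8 other probes 4 were called under the control virus and 3 under Cre. Il3ra was higher in CD34+ cells under either virus. Csf2rb2 passed the threshold under the control virus and not under Cre, and the change between these contrasts (log2 0.56 ± 0.22) was not called (adjusted p = 0.231, limma). Under Cre 3 of 11 were called without CD34+ Cre number 2 repeat 1, and with marrow by virus as a random block. Over all probes these settings gave 8508 and 7630 calls in place of 9469.

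**Figure D4:**
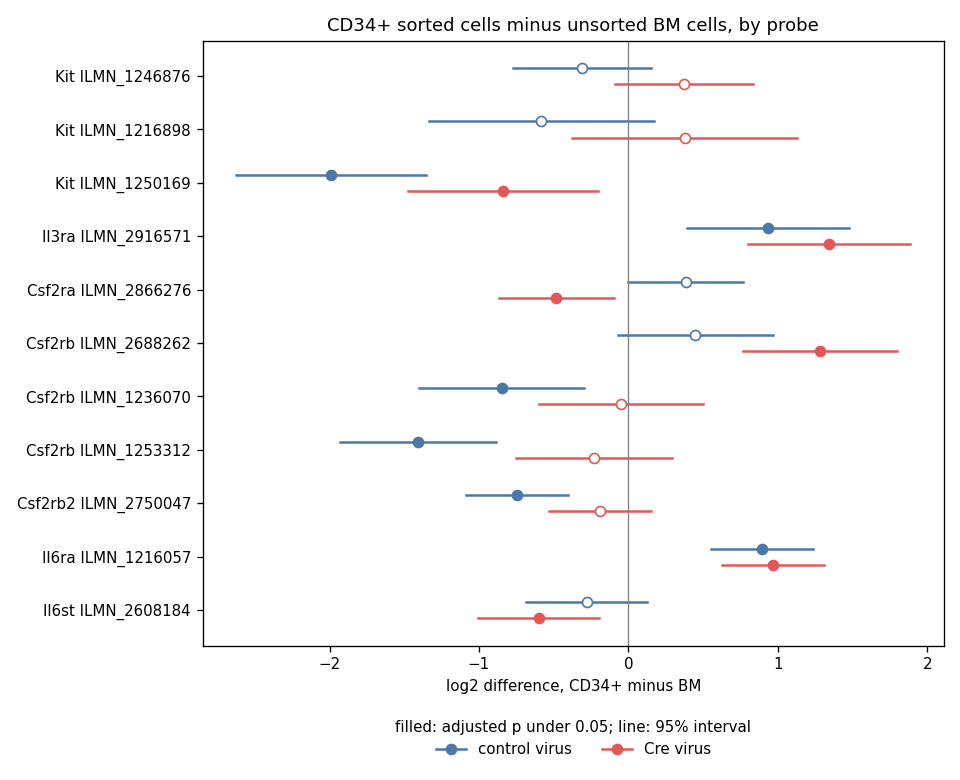
Log2 difference between CD34+ sorted and unsorted BM cells for each probe under each virus, with 95% intervals; filled points have an adjusted p under 0.05. Il3ra and the Il6ra probe ILMN_1216057, which was kept through the CD34+ arrays alone, lie above 0 under both viruses, and the 3 Csf2rb probes do not share a direction.

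The genes that carry the signal inward from these receptors included members that were lower with them. Of 24 tested kinases and adaptors, 0 rose and 5 fell in BM cells under Cre, with a median of -0.16 beside -0.07 for all probes. Of all tested probes 7.09% were called higher and 6.95% lower. Those with the smallest p were Spred1, an inhibitor of Ras-ERK signalling (log2 mean 12.22 ± 0.17 SD in control and 10.73 ± 0.20 in Cre, n = 3 each, difference -1.49 ± 0.21 SE, adjusted p = 0.000407, limma), the Tec-family kinase Btk (-0.74 ± 0.11, adjusted p = 0.000459) and the adaptor Lat2, phosphorylated below Kit and the IgE receptor in mast cells (-0.81 ± 0.15, adjusted p = 0.0028). In CD34+ cells 0 of 24 were called by limma, and 2 higher and 1 lower without the array labelled number 4 Cre. Without that array 1816 of all 19274 probes were called. Sh2b3, the adaptor Lnk that restrains Kit and Jak2, had the smallest p in CD34+ cells (0.43 ± 0.16, adjusted p = 0.319, and 0.0351 without the array labelled number 4 Cre, limma). It was near background, detected on 1 of 3 CD34+ control arrays and 2 of 3 CD34+ Cre arrays. Under the control virus 3 genes of the list were higher and 8 lower in CD34+ than in BM cells by limma. Of all probes 20.4% were called higher and 19.5% lower there. Among the lower genes, the ubiquitin ligase Cblb was 5.11-fold below BM cells (adjusted p = 1.01e-05). Jak1, the kinase of the gp130 receptors, was 11.2-fold below (adjusted p = 2.04e-05).

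Of 17 tested STAT factors and feedback genes, 0 rose and 4 fell in BM cells under Cre (median -0.47). Of all tested probes 7.09% were called higher and 6.95% lower. Stat4 fell 2.10-fold (-1.07 ± 0.18, adjusted p = 0.00174, limma), the signalling inhibitor Socs5 fell 2.86-fold (-1.52 ± 0.28, adjusted p = 0.00305), and Bcl2l1, which encodes the survival protein Bcl-xL, fell 1.65-fold (-0.72 ± 0.18, adjusted p = 0.0176). By limma 0 of the 17 were called in CD34+ cells, where the kinase gene Pim3 had the smallest p (0.86 ± 0.42, adjusted p = 0.451), and 0 of 17 with the number 4 Cre array left out. Between populations under Cre, Cish, which Stat5 induces, was 2.87-fold higher in CD34+ cells (adjusted p = 0.00375) and Bcl2l1 1.61-fold higher (adjusted p = 0.00686). Under the control virus 1 of the 17 was called by limma, where 39.9% of all probes were. It was Pim2, at 2.12-fold lower in CD34+ cells (adjusted p = 0.0162). The control arrays of the populations overlapped. Pim2 was detected on 1 of 3 CD34+ control arrays and on every BM array, so the CD34+ level was near background and the probe passed the filter through the BM arrays.

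Of 12 ligand genes of these receptors, 3 were tested. Flt3l, the Flt3 ligand, fell 2.32-fold in BM cells under Cre (-1.22 ± 0.28, adjusted p = 0.0121, limma) and was 2.34-fold higher in CD34+ than in BM control cells (adjusted p = 0.00435). In CD34+ cells Cre gave -0.50 ± 0.28 (adjusted p = 0.51; -0.85 and 0.0341 without the array labelled number 4 Cre). Il6, whose protein was also supplied in the medium, was 4.85-fold lower in CD34+ than in BM control cells (log2 means 9.07 ± 0.37 and 11.35 ± 0.07 SD, n = 3 each, adjusted p = 2.33e-05).

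Other haematopoietic cytokine receptors went both ways in BM cells under Cre: of 26 tested, 5 rose and 6 fell. Of all tested probes 7.09% were called higher and 6.95% lower. Csf3r, the granulocyte colony-stimulating factor receptor of neutrophils, rose 12.2-fold (log2 5.20 ± 0.20 to 8.80 ± 0.56 SD, n = 3 each, adjusted p = 1.54e-06, limma). It was detected on 1 of 3 BM control arrays, so the fold starts near background. Ifngr1, an interferon gamma receptor chain, rose 3.51-fold (adjusted p = 1.51e-05), and Tnfrsf1a, a tumour necrosis factor receptor, rose at least 2.65-fold from below detection (adjusted p = 2.01e-05). Tnfrsf1a was detected on the BM Cre arrays alone and passed the filter only with them. In CD34+ cells 0 of 26 were called by limma, and 1 higher and 2 lower without the array labelled number 4 Cre, where 1816 of all 19274 probes were called. The lower genes, named after their values were seen, were Il27ra (-1.97, adjusted p = 0.000545) and Il18r1 (-1.78, adjusted p = 0.00131). Tnfrsf1b, the other tumour necrosis factor receptor, came nearest (1.12 ± 0.25, adjusted p = 0.0776; 0.0253 without the array labelled number 4 Cre and 0.0365 with the block). Under the control virus Il10rb and Il4ra, chains of the IL-10 and IL-4 receptors, were 2.86-fold and 3.69-fold lower in CD34+ cells (adjusted p = 6.78e-05 and 0.000353).

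Markers of other cell types moved with the BM difference. Of the neutrophil and granule markers 16 of 16 rose in BM cells under Cre, with a median of 5.87. Of all tested probes 7.09% were called higher and 6.95% lower. The log2 of the markers' summed intensity went from 12.92 to 13.54 on the control arrays to 17.61 to 17.92 on the Cre arrays. Prtn3, Fcnb, Hp, Mmp8, Mpo, Elane, Cebpe and Camp passed the filter only with the BM Cre arrays. They were tested because that group was high, so their calls are no independent support for a rise. Mpo, the neutrophil granule peroxidase, averaged 5.02 ± 0.45 and 15.47 ± 0.07 (SD, n = 3 each), and the granule proteases Prtn3 and Elane rose at least 443-fold and 295-fold (adjusted p = 3.02e-11 and 2.72e-10, limma). Eosinophil markers rose in 4 of 5 (summed 10.78 to 13.70 against 16.70 to 16.86; Prg3, Epx and Ear6 had the smallest p) and monocyte and macrophage markers in 6 of 11 (13.28 to 15.35 against 15.60 to 15.86; Ly6c1, Cd14 and Irf8 had the smallest p). Irf8 also passed the filter only with the BM Cre arrays. Of 15 mast cell and basophil markers 3 rose and 7 fell, with a median of -0.80 beside -0.07 for all probes. Their summed level, in which the brightest genes weigh most, was 18.37 to 18.56 against 18.24 to 18.45. The sum includes Prss34, whose mean went from 8.69 to 15.20. The risers included the basophil protease genes Prss34 and Mcpt8, and Tph1, of serotonin synthesis, fell 1.98-fold (adjusted p = 0.000139). In unsorted cells, fewer cells of a type and less RNA per cell cannot be told apart, and the part of these cell types in the lower Kit, Csf2rb and Csf2rb2 levels was not tested.

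In CD34+ cells the calls on these lists depended on the array labelled number 4 Cre. Over all arrays, by limma 0 of 16 neutrophil and granule markers were called (Ctsg had the smallest p, adjusted p = 0.503), with 14 of 16 detected on no control array and 11 of 16 on no Cre array. Of the mast cell and basophil list 1 of 15 was called, the mast cell receptor gene Mrgprb2, at 43.6-fold lower under Cre (adjusted p = 0.00308), and of the monocyte list 1 of 11, the Fc receptor gene Fcgr1, at least 2.01-fold higher (adjusted p = 0.0466). Eosinophil markers had 0 of 5 called by limma, and 4 of the 5 were detected on no CD34+ array of either virus. With the array labelled number 4 Cre left out, 5 of 15 mast cell and basophil markers were called, all lower under Cre, where all arrays had given 1. The Cre arrays that remain are repeats of a single marrow, number 2, so these calls are not replicated across marrows. Over all 19274 probes the count rose from 119 to 1816. The added genes, named after their values were seen, encode mast cell and basophil proteases: Mcpt4 (-3.50, adjusted p = 0.000108), Tpsab1 (-3.02, adjusted p = 0.00126), Tpsb2 (-1.38, adjusted p = 0.00463) and Mcpt8 (-1.61, adjusted p = 0.00488). Mrgprb2 stood at -6.00 (adjusted p = 0.000518) and Fcgr1 at 1.80 (adjusted p = 0.00251), and the neutrophil and eosinophil lists again had 0 called.

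The remaining marker lists are given by their counts in BM and then in CD34+ cells under Cre. Of all tested probes 7.09% were called higher and 6.95% lower in BM cells, and 0.617% were called in CD34+ cells. Among the risers, Cd27, Thy1, Prom1, Car1, H2-Aa, H2-Eb1, Acta2 and Vcam1 passed the filter only with the BM Cre arrays. Their calls are therefore no independent support for a rise. Stem and progenitor markers had 3 up and 4 down of 9 (Cd27, Thy1 and Prom1 rose, and Cd34 fell 2.18-fold, adjusted p = 0.00922, limma) and 0 of 9, where Tek had the smallest p (-1.52 ± 0.48, adjusted p = 0.236; -2.17 and 0.0035, called, without the array labelled number 4 Cre). Erythroid and megakaryocyte markers had 4 up and 2 down of 9 (Klf1 and Car1 rose and Vwf fell) and 0 of 9, where Vwf had the smallest p (-1.01, adjusted p = 0.172; -1.40 and 0.00148, called, without that array). Dendritic and lymphoid markers had 3 up of 8 (H2-Aa, H2-Eb1 and Cd74) and 0 of 8. Stroma and endothelium markers had 2 up and 1 down of 4 (Acta2 and Vcam1 rose and Pecam1 fell) and 0 of 4.

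**Figure D5:**
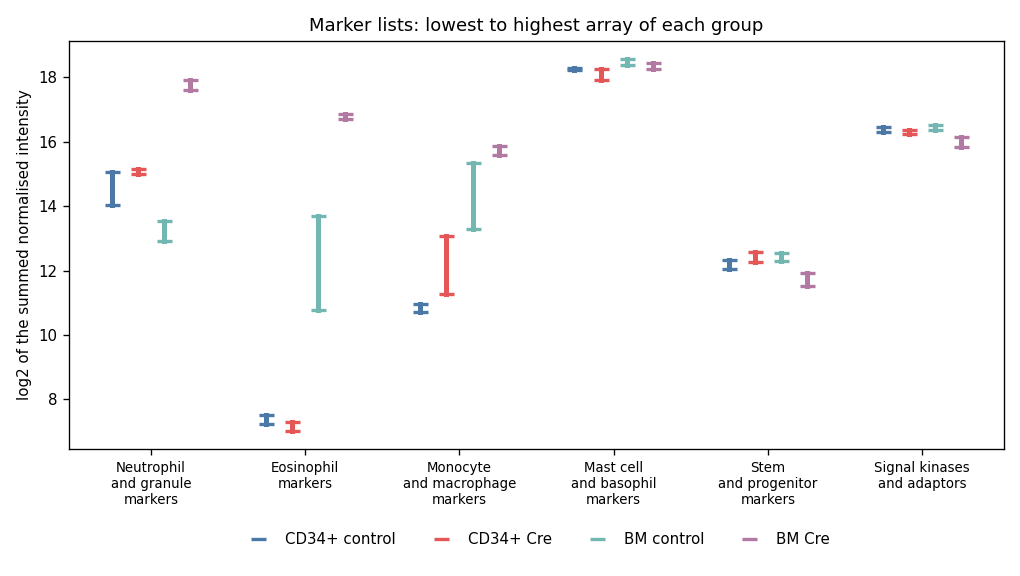
Log2 of the summed normalised intensity of 6 gene lists, drawn from the lowest to the highest of the 3 arrays in each group. The neutrophil and eosinophil lists are highest in BM Cre cells. The sum of the mast cell list, in which the brightest genes weigh most, lies between 17.90 and 18.56 in all groups.

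Members whose brightest probe spanned at least 1 log2 unit between group means were Csf2rb and Il3ra, and the named genes nearest to their profiles over the 12 arrays were found by the root mean square difference of centred log2 levels. For Csf2rb (ILMN_2688262) these were Nfkbie, an inhibitor of NF-kappaB (0.15), Itpr2, an intracellular calcium channel (0.16), and Tbxas1, thromboxane synthase (0.16), against a median of 0.67 over all genes. Tbxas1, chosen for this likeness, was lowest in BM Cre cells, as was that Csf2rb probe (Tbxas1 10.86 ± 0.19 SD, n = 3, against 11.74 ± 0.16 in BM control). The other Csf2rb probes had their lowest means in CD34+ cells, ILMN_1236070 under Cre and ILMN_1253312 under the control virus. For Il3ra the nearest were Smg6, a nuclease of nonsense-mediated decay (0.14), Zmym6, a zinc finger gene (0.17), and Lrrc28, a leucine-rich repeat gene (0.18), against a median of 0.72.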

How the data were processed

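Values were the deposited intensity of each probe on each array, a linear, background-subtracted scanner signal per the file headers, with a detection p-value per probe also deposited by the authors. The authors' own deposited value table holds linear intensities with low values set to 24, and the submitters' processing notes name RMA; its scaling and centring stay unknown, and it served as an alternative. Gene names came from the platform annotation (34885 probes with 1 symbol, 18 with several, 10378 with none). Intensities were background-corrected, quantile-normalised and log2-transformed with neqc (offset 16) in limma 3.58.1 (R 4.3.3), and probes entered the fit if 3 or more of the 12 arrays had a detection p under 0.05. One limma fit of 4 group means over 12 arrays (residual df 8, prior df 4.12, intensity trend) gave all comparisons, with Benjamini-Hochberg adjustment over all 19274 kept probes and a threshold of 0.05. Where a group was below detection on every array, "at least" folds set its mean at the higher of the probe's own value and the lowest detected signal. For member probes detected in 1 population alone, the contrast between populations came from a fit of all 45281 probes, since their passing the filter depended on that contrast. For Kit ILMN_1250169 the Cre difference in BM cells is given from both fits. Levels of different probes were not compared.

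Members and gene lists were chosen with earlier results of these data known. Beside all members, Bcor and Cd34, named genes were up to 3 called genes of a list by smallest p in each Cre comparison (otherwise the 1 with the smallest p), up to 2 between populations, and the 3 nearest profiles; Il5ra was also given in BM cells because it pairs with Csf2rb. A gene stood for its list by its brightest kept probe. Values of list genes came from the filtered fit, also where a gene passed the filter only with 1 group. The lists were signal kinases and adaptors, STAT factors and feedback genes, ligands, other cytokine receptors, and markers of mast cells and basophils, neutrophils, monocytes, stem cells, eosinophils, dendritic and lymphoid cells, erythroid cells and megakaryocytes, and stroma. Deviations from the group mean correlated between BM arrays of equal repeat number (0.12, 0.40 and 0.35) and between CD34+ arrays of 1 marrow (0.33 to 0.49). The numbers were therefore taken to pair the arrays, and a fit with them as a block was an alternative. For BM arrays the labels do not state this pairing, so the block is not independent of the data. The fit was tested on simulated data.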

Additional observations from a re-analysis of the deposited data

Results flagged for a closer look

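Csf2ra (ILMN_2866276) drew attention because Cre went with opposite directions in the populations: every CD34+ Cre array was below every CD34+ control array, and every BM Cre array above every BM control array. The difference of the Cre effects was -0.87 on the log2 scale (adjusted p = 0.0775, limma). The probe ILMN_1253312 of Csf2rb had the reverse arrangement, higher under Cre in CD34+ cells and lower in BM cells, with a difference of the effects of 1.18 (adjusted p = 0.0784). The other probes of Csf2rb gave 0.80 and 0.83 (adjusted p = 0.303 and 0.237), without separated arrays in CD34+ cells.

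The Il6ra probes outside the filter were each detected on a single array, both of the BM Cre group and on none of the 3 BM control arrays: ILMN_1255743 at 5.30 on repeat 1 and ILMN_2706430 at 5.44 on repeat 2.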

How the results depend on the processing

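Across 1237 combinations of a result and an alternative, 1131 kept direction and side of the threshold, 56 lost a call, 17 gained one and 33 changed sign. The count of member probes called for Cre in BM cells, 6, became 2 with the authors' table (Kit ILMN_1216898 and Csf2rb2), 3 with 1 probe per gene and 1 to 8 with an array left out. Over all probes the count, 2706, became 1260 with the authors' table and 1792 to 3771 with an array left out. Calls for the difference of the effects, 0, became 1 without the filter (the Il6ra probe ILMN_1255743), 3 with marrow and repeat number as a replicate block, 1 with the number 2 repeats also paired in that block and 0 to 1 with an array left out. Over all probes these blocks gave 1949 and 1498 calls in place of 916. The replicate block changed no other member count by more than 1.5 times. Calls between populations, 6 under each virus, became 3 under the control virus with the authors' table and with 1 probe per gene (5 to 6 with an array left out), and 3 under Cre with marrow by virus as a random block (3 to 6 with an array left out). In CD34+ cells 0 were called under every alternative run. Use of 1 probe per gene tests 7 genes in place of 11 probes, and the cause of the other changes was not tested.

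Sign changes were confined to differences that were not called under the changed setting. For Cre in CD34+ cells, Csf2rb ILMN_1236070 gave 0.025 with median scaling, 0.076 with repeats averaged and 0.059 with the random block (-0.288 to 0.161 with an array left out), and ILMN_2688262 gave 0.012, 0.079 and 0.054 (-0.257 to 0.025). There Il6ra gave -0.018 with median scaling and -0.028 with the authors' table (-0.125 to 0.108), Il6st -0.011 with repeats averaged (-0.124 to 0.215), and Kit ILMN_1250169 -0.24 to 0.079 with an array left out. For the difference of the effects, Il6ra gave -0.028 and Il6st 0.059 with the authors' table, and Il6ra -0.064 to 0.17 with an array left out. Between populations median scaling, which moved the median of all probes by -0.31 under the control virus and -0.38 under Cre, gave 0.046 for Kit ILMN_1246876 and -0.152 for Csf2ra under the control virus and -0.024 for Kit ILMN_1216898 under Cre (-0.056 to 0.647 with an array left out). Under Cre, Csf2rb ILMN_1236070 gave 0.08 with repeats averaged and 0.06 with the random block (-0.302 to 0.146 with an array left out), and Il6st, called lower in CD34+ cells by the reported fit, 0.059 with the authors' table. The Il6st values with that table rest on a single array above its floor of 24. The scan chip as a block was not run because the headers give none. Signals near background limit what can be said of Il6ra, Il6st and Flt3.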
